A study of Mus musculus with 88 samples.

Results

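The heat shock proteins and chaperonins are the proteins that fold, refold, disassemble and escort other proteins. Their genes were taken here as all symbols that start with Hsp followed by a, b, d, e, h or a number (without Hspg2), with Dnaj, or with Cct followed by a number, wherever the platform annotation gives a probe set that symbol alone. This found 55 genes among the 8251 genes with such a probe set. Of these, 48 passed the filter on dim signals, as did 5671 genes in all. Whole hearts of 88 mice gave the RNA, each heart on an array of its own, and the groups combined 2 genotypes, 2 diets and 3 ages. The dKO mice were SR-BI-/- apoE-/- and the control mice, called HET, were SR-BI+/- apoE-/-, so every mouse lacked apolipoprotein E and no group was wild type. Mice aged 21, 31 or 43 days were on chow or on probucol, an antioxidant drug that lowers lipids. The chow groups held 10, 10 and 12 dKO mice and, as controls, 9, 10 and 9 HET mice in order of age. The probucol groups held 6, 8 and 6 dKO mice and 3, 3 and 2 HET mice. The design text places no sign of coronary disease in dKO mice at the first age, small infarcts with failing hearts at the second and large infarcts with severe failure at the third.

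As background, chaperones of the Hsp70 family bind unfolded stretches of protein in a cycle driven by ATP. J proteins (the Dnaj genes) bring clients to Hsp70 and start that cycle, and Hsp110 proteins and other exchange factors end it. Hsp90 finishes the folding of kinases and steroid receptors, small heat shock proteins hold unfolding proteins without ATP, and the chaperonins are folding chambers, TRiC (the Cct genes) in the cytosol and Hsp60 with Hsp10 (Hspd1 and Hspe1) in mitochondria. Heat shock factor switches on many of the cytosolic members through repeats of GAA and TTC in their promoters, and the ER members answer to unfolded protein in the endoplasmic reticulum through an ER stress element. In heart muscle these systems support the turnover of contractile proteins and the import of proteins into a large mitochondrial pool.

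Signals are log2 values relative to the median of all probe sets of the same array, so 1 unit is a doubling. A member is called where the limma fit over all arrays gave a Benjamini-Hochberg adjusted p under 0.05 over all 5671 genes. The median signal of single arrays ran from 27.8 to 75.4 and shifted with the groups, and a change of centring moves every gene of a comparison together, while quantile normalization moves genes by amounts that depend on their signal. Each call was therefore repeated with arrays centred on the median of the tested genes, with quantile normalization and with the values as deposited, and "in all 4 scalings" marks a call with the same direction in each. The signal cannot tell fewer cells of a type from less RNA per cell. Separate mice stand behind the replicates, and their number limits the precision.

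A few facts of the arrays bear on every comparison. Scarb1, the gene that encodes SR-BI, had mean levels of 2.25, 2.08 and 2.10 in HET chow hearts against 0.88, 1.01 and 1.06 in dKO chow hearts at the successive ages. All 9 cardiomyocyte markers on the array were above the signal floor on every array. The second component of the spread within groups divided the arrays into sets of 68 and 20, which the groups shared unequally. On chow the 20 arrays included 6 dKO and 2 HET hearts aged 21 days, no dKO heart but 6 HET hearts aged 31 days, and no dKO heart but 3 HET hearts aged 43 days. Arrays 2, 7 and 9 of the HET chow groups at 21, 31 and 43 days stood apart on the first component. For replicate 2 of the youngest dKO chow group the description names a different age from the title, and the title was used.

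The promoters of 6 members are shown because their genes either rose together, share a start region or carry the element that the ER members are known for. RefSeq's promoter table for GRCm38.p6 held 47 of the 55 members, each with 250 bases before and 50 after the gene's start. Each stretch printed below is the 150 bases before the start, on the gene's own strand. In the stretches of Hspa1a and Hspa1b, the pair of heat-inducible Hsp70 genes on chromosome 17, the capitals mark GAANNTTC, 2 units of a heat shock element, at positions -104 to -97 from the start. The stretches lie at chr17:34972157-34972306 and chr17:34959239-34959388, both on the minus strand.
Hspa1a: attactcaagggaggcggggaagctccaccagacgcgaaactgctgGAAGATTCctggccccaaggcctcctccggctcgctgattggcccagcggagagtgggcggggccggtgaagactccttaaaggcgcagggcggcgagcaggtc
Hspa1b: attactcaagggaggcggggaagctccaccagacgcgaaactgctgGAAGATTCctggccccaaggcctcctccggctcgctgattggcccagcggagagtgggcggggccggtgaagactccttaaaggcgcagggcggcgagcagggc
The 2 stretches share 149 of 150 bases, and the whole windows share 296 of 300. The genes are near-identical copies, so each probe set may also detect the other gene's RNA, and their signals are not independent.

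The next stretch belongs to Hspd1, the mitochondrial Hsp60 gene, at chr1:55087933-55088082 on the minus strand. Hspe1, the gene of its partner Hsp10, starts 215 bases away on the other strand. The capitals mark 2 overlapping matches to 3 units of a heat shock element, that is GAANNTTC with a further GAA or TTC at the same spacing on one side, at positions -144 to -127.
Hspd1: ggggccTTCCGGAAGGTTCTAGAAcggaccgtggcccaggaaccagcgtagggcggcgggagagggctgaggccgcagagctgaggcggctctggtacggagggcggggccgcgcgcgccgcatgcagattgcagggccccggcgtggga

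The last set holds the ER members whose window contains the ER stress element, CCAAT and CCACG at a fixed spacing, marked in capitals. Hspa5, the ER Hsp70 known as BiP, carries it at -65 to -47 in chr2:34771940-34772089 on the plus strand. Dnajc3, an ER J protein that restrains the kinase PERK, carries it at -105 to -87 in chr14:118937782-118937931 on the plus strand. Hsp90b1, the ER Hsp90 known as GRP94, carries it on the opposite strand at -107 to -89 in chr10:86705445-86705594, where the gene is on the minus strand. A further match in the Hsp90b1 window lies on the gene's own strand at -212 to -194, outside the printed stretch.
Hspa5: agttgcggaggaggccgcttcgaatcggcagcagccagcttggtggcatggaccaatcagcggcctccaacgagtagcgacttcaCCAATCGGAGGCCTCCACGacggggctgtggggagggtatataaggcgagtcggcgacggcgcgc
Dnajc3: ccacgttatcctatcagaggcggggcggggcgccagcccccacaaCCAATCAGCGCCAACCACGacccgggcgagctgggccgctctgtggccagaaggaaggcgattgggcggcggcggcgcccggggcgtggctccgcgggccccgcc
Hsp90b1: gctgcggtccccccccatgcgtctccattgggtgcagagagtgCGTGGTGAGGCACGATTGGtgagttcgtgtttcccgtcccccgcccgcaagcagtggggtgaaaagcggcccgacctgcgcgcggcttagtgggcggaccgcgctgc
All motifs were searched on both strands of the full windows. GAANNTTC was in the windows of 10 of the 47 members, 21.3%, counting a gene with a match in any of its windows, and on the same count in 9.04% of all genes in the table. By window it was in 12 of 61 member windows and 7.86% of all 32851. The longer element of 3 units, whose matches also contain GAANNTTC, was in 4 of 47, namely Dnajb6, Hspd1, Hspe1 and Hsph1, 8.51%, and in 0.662% of all genes, or 0.603% of all windows. The matches of Hspd1 and Hspe1 are the same bases between the 2 genes, read from opposite strands, so that site counts for both. Those of Hsph1 and Hspb8 lie after the start. The ER stress element was in 3 of 47, 6.38%, and in 0.137% of all genes, or 0.119% of all windows. These are matches of letters, and no binding was measured.

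The members divide by role into 11 Hsp70 and Hsp110 genes, 2 Hsp90 genes, 27 J proteins, 3 small heat shock proteins, the mitochondrial pair, 8 TRiC subunits and 2 others. The tested numbers in these roles were 9, 2, 24, 2, 2, 8 and 1. The 7 members too dim to be tested were Hspa14, Hspa2, Dnajb3, Dnajb5, Dnajb8, Hspb11 and Hspb1. Hspb1, which encodes the small heat shock protein Hsp27, had a mean signal of 11.9 and lay at the floor on 22 arrays, so its level in these hearts was not resolved by this probe set. All 48 tested members were above the floor on every array. Within groups the members' residual SD had a median of 0.340, against 0.366 over all tested genes. It was 0.774 for Hspa1b and 0.692 for Hspa1a, among the most variable members, and 0.203 for Hspb8, the least variable.

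The first comparison asked whether chaperone genes differed between the genotypes at 21 days on chow. None of the 48 members was called, where 4.09% of all tested genes were called higher and 0.899% lower. At an unadjusted p under 0.05, the limma fit had 7 members higher in dKO hearts and 0 lower, where 16.6% and 4.20% of all genes passed. The member with the smallest p was Dnajc7, a J protein with repeats that bind Hsp70 and Hsp90, at 0.49 ± 0.16 (SE, adjusted p = 0.0623). The members' median difference was 0.15, beside 0.12 over all tested genes. Hspa1b differed by 0.48 ± 0.35 (adjusted p = 0.442), Hspd1 by 0.29 ± 0.18 (adjusted p = 0.348) and Hspb8 by 0.06 ± 0.10 (adjusted p = 0.764).

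At 31 days on chow 2 members were higher and 16 lower in dKO hearts. The higher pair was Hspa1a and Hspa1b, and the lower members included Hsp70, Hsp110, Hsp90, J protein, small heat shock, TRiC and mitochondrial chaperonin genes. Over all tested genes 8.61% were higher and 23.0% lower. In all 4 scalings the 2 higher members and 3 lower ones remained, Dnajc11, Dnajc15 and Hspa4, where 7.97% and 3.84% of all genes did. The 5 probe sets of Hspa4 disagreed, at -0.60, -0.60, -0.39, 0.44 and 0.45, and their mean was at -0.14 (adjusted p = 0.391). The members' median difference was -0.25, beside -0.14 over all genes. Within the larger array set, which keeps 4 of the 10 HET hearts of this age, 5 members were called and all were lower. They were Dnaja2, Dnaja3, Dnajc11, Hspa5 and Hspb8. The share of all genes called within that set is not given here, so this count is not read as more or fewer than among other genes. With values as deposited 5 members were higher and 3 lower, where 20.4% of all genes were higher and 3.91% lower. The balance of directions at this age thus depends on the scaling. In the same hearts all 9 cardiomyocyte markers were lower, 3 of them in all 4 scalings, and 7 of 9 tested macrophage markers were higher. The cardiomyocyte sum, in units of the array median, ran from 837 through 1179 to 1395 in HET hearts and from 586 through 805 to 1129 in dKO hearts, and the macrophage sum from 30.4 through 43.6 to 55.6 and from 76.6 through 106 to 185. The part of these shifts in the results for chaperone genes was not tested.

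The inducible Hsp70 genes were the members that rose. Hspa1b had levels of -2.72, -0.75 and -0.18 (lowest, median, highest) in the 10 HET hearts and of -0.97, 0.08 and 1.64 in the 10 dKO hearts at 31 days. Of the dKO hearts, 6 were above every HET heart. The difference was 1.41 ± 0.34 (adjusted p = 8.70e-04), a 2.65-fold higher signal. Within the larger array set alone it was 0.74, with an adjusted p of 0.198. Hspa1a ran from -1.42 through -0.48 to 0.31 in HET hearts and from -0.61 through 0.32 to 1.39 in dKO hearts, a difference of 0.87 ± 0.30 (adjusted p = 0.0214), and 0.46 with an adjusted p of 0.454 within the larger set. As for Hspa1b, 6 dKO hearts were above every HET heart and the groups overlapped.

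Among the J proteins at 31 days, Dnajc11 and Dnajc15 were lower in all 4 scalings. Dnajc11, a mitochondrial protein associated with the cristae-organising complex, had levels of -0.49, 0.85 and 1.39 in HET hearts and of -1.37, -0.75 and 0.74 in dKO hearts. Its difference was -1.23 ± 0.28 (adjusted p = 5.53e-04), and it was -1.30 (adjusted p = 0.0127) in the larger array set. Dnajc15, a J protein of the inner mitochondrial membrane that restrains respiratory complex I, ran from 2.10 through 2.94 to 3.37 in HET hearts and from 1.79 through 2.07 to 2.53 in dKO hearts. The difference was -0.76 ± 0.15 (adjusted p = 6.57e-05), and in the larger set it was -0.45 with an adjusted p of 0.129. The other called J proteins were Dnaja3 at -0.57, Dnaja2 and Dnajc4 at -0.49, Dnajc2, the ribosome-bound zuotin, at -0.38, and Dnaja1 at -0.33, none of them called with values as deposited.

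Hspb8, a small heat shock protein that works with Bag3 in the disposal of damaged contractile proteins, was the only member whose groups did not overlap at 31 days. Its levels were 4.84, 4.95 and 5.15 in HET hearts and 4.32, 4.65 and 4.77 in dKO hearts. All 10 dKO hearts lay below every HET heart, as was so for 1.71% of all tested genes in either direction. The difference was -0.39 ± 0.09 (adjusted p = 8.22e-04), and it was -0.40 (adjusted p = 0.0168) in the larger array set. It was not called after quantile normalization or as deposited, where the difference was -0.07. With the mean of the 2 probe sets of Hspb8 the difference was -0.14 (adjusted p = 0.588), so the call rests on the probe set used.

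The remaining called members at 31 days held in fewer scalings. Hspa5 was lower by -0.61 ± 0.16 (adjusted p = 0.00206) and Hsp90b1 by -0.35 ± 0.13 (adjusted p = 0.0361), the ER pair with the element shown above. Hspa5 had levels of 3.65, 4.48 and 4.97 in HET hearts and of 3.27, 3.97 and 4.60 in dKO hearts, so the groups overlapped widely. Hspd1 differed by -0.55 ± 0.17 (adjusted p = 0.0104) and Hspe1 by -0.42 ± 0.15 (adjusted p = 0.026). Hspb2, a muscle small heat shock protein, differed by -0.41 ± 0.10 and Hspa4l, an Hsp110, by -0.45 ± 0.16. Of the TRiC subunits 1 of 8 was called, Cct7 at -0.31 ± 0.12 (adjusted p = 0.0464), and it lay at 0.01 as deposited. Over all tested genes 23.0% were lower at this age. The constitutive Hsp70 gene Hspa8 was not called, with -0.25 ± 0.16 (95% interval -0.57 to 0.06).

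**Figure D1:**
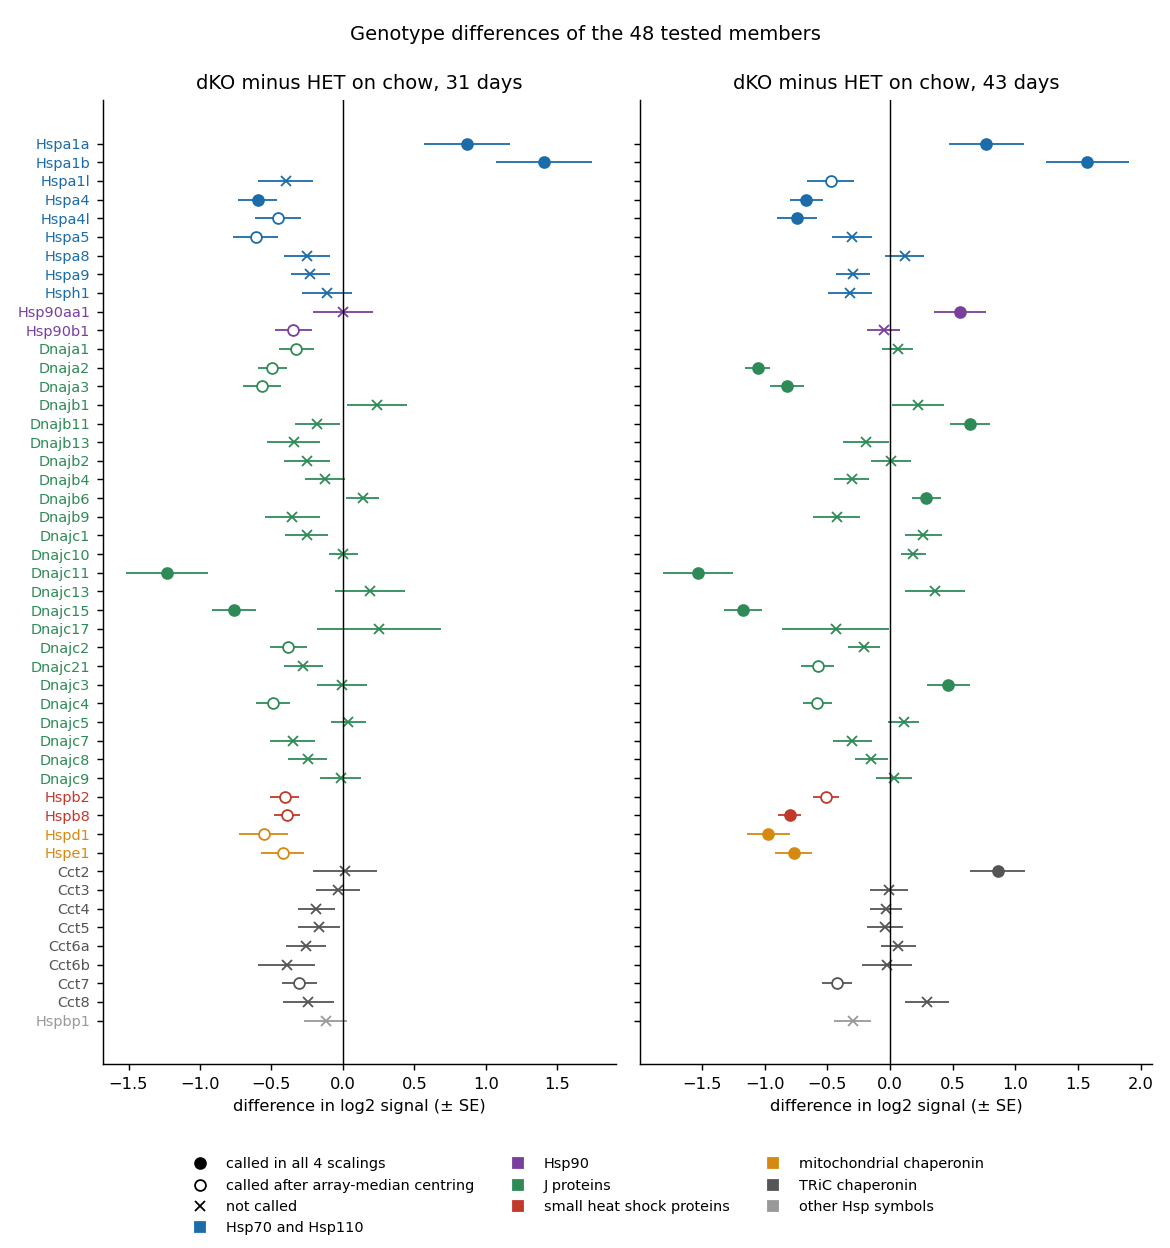
Difference in log2 signal (horizontal axis, ± SE) between dKO and HET hearts on chow for each of the 48 tested members (vertical axis, coloured by role), at 31 days (left) and 43 days (right). Filled circles were called in all 4 scalings, open circles only after array-median centring or in some scalings, and crosses were not called. At 43 days 7 members were called higher and 14 lower, with Hspa1b at 1.57 and Dnajc11 at -1.53 at the ends.

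At 43 days on chow 7 members were higher and 14 lower in dKO hearts, and 7 and 9 of them held in all 4 scalings. The mitochondrial chaperonin pair, the mitochondrial J proteins Dnaja3, Dnajc11 and Dnajc15, the cytosolic J protein Dnaja2 and Hspb8 were lower, while the inducible Hsp70 and Hsp90 genes, 2 ER J proteins, Dnajb6 and 1 TRiC subunit were higher. Over all tested genes 19.6% were higher and 28.0% lower, or 19.5% and 11.6% in all 4 scalings. The members' median difference was -0.17, beside -0.08 over all genes. As deposited, 20 members were higher and 9 lower, where 37.3% and 11.6% of all genes were, with a median over all genes of 0.26. In the same hearts all 9 cardiomyocyte markers were lower, 7 of them in all 4 scalings, with a median difference of -0.88. Their summed level ran from 645 through 1144 to 1359 in HET hearts and from 465 through 657 to 931 in dKO hearts. The 9 tested macrophage markers were all higher, and their sum ran from 27.8 through 35.03 to 43.4 in HET hearts and from 168 through 221 to 286 in dKO hearts. Of the 8 fibroblast and matrix markers 6 were higher and 1 lower. Both erythroid markers tested were higher at each age, and their sum had medians of 165, 147 and 95.4 in HET chow hearts and of 340, 219 and 225 in dKO chow hearts in order of age. The part of these shifts in the results for chaperone genes was not tested.

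The mitochondrial chaperonin was lower as a pair. Hspd1 had levels of 4.20, 4.87 and 5.26 in the 9 HET hearts and of 2.98, 3.89 and 4.54 in the 12 dKO hearts at 43 days. Of the dKO hearts, 7 were below every HET heart, and the difference was -0.97 ± 0.17 (adjusted p = 1.37e-06), a 1.96-fold lower signal. A second, dimmer probe set of Hspd1 differed by -0.52 ± 0.22. Hspe1 ran from 3.29 through 4.17 to 4.65 in HET hearts and from 2.88 through 3.22 to 4.12 in dKO hearts. Its difference was -0.77 ± 0.15 (adjusted p = 1.03e-05), and 8 of 12 dKO hearts were below every HET heart.

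Of the 6 tested members that act in mitochondria, 5 were lower in all 4 scalings at 43 days, as were 11.6% of all tested genes. Dnajc15 ran from 2.29 through 2.61 to 2.83 in HET hearts and from 1.06 through 1.31 to 2.27 in dKO hearts. No dKO heart reached the lowest HET heart, and the difference was -1.17 ± 0.15 (adjusted p = 1.71e-10), a 2.25-fold lower signal. Dnaja3, the mitochondrial J protein Tid1, ran from 2.86 through 3.67 to 3.86 in HET hearts and from 2.22 through 2.70 to 3.44 in dKO hearts, and differed by -0.82 ± 0.13 (adjusted p = 1.64e-07) and Dnajc11 by -1.53 ± 0.28 (adjusted p = 3.11e-06). Dnajc11 had levels of -0.65, 0.25 and 1.55 in HET hearts and of -1.67, -1.22 and -0.64 in dKO hearts. Hspa9, the mitochondrial Hsp70 also called mortalin, was at -0.30 ± 0.13 (95% interval -0.56 to -0.03, adjusted p = 0.0597). It had levels of 3.13, 3.96 and 4.41 in HET hearts and of 3.33, 3.497 and 3.82 in dKO hearts, was called lower with the tested-gene median (adjusted p = 0.0374) and lay at 0.05 as deposited.

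Dnaja2, a cytosolic partner of Hspa8, and Hspb8 were the other members with separate groups at 43 days. Dnaja2 had levels of 1.82, 2.38 and 2.82 in HET hearts and of 0.81, 1.28 and 1.69 in dKO hearts, and differed by -1.06 ± 0.10 (adjusted p = 2.24e-15), a 2.08-fold lower signal. Hspb8 had levels of 4.58, 4.97 and 5.32 in HET hearts and of 3.92, 4.20 and 4.54 in dKO hearts, and differed by -0.80 ± 0.09 (adjusted p = 5.09e-12). With Dnajc15, 3 of 48 members had groups that did not overlap, where 8.41% of all tested genes did. Hspb2 was lower by -0.51 ± 0.10 (adjusted p = 1.34e-05) after centring, but not as deposited, and its second probe set differed by -0.79 ± 0.19.

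Both Hsp110 genes Hspa4 and Hspa4l were lower at 43 days by the probe set used. Hspa4l differed by -0.74 ± 0.16 (adjusted p = 4.90e-05), with levels of 0.87, 1.48 and 2.00 in HET hearts and of 0.15, 0.69 and 0.92 in dKO hearts. Hspa4 differed by -0.67 ± 0.13 (adjusted p = 1.77e-05), but its 5 probe sets disagreed, the other 4 lying at 0.28, 0.24, -0.10 and 0.92. The mean of its probe sets differed by 0.14, so the direction of Hspa4 depends on the probe set. Hsph1, the third Hsp110, was not called, at -0.32 ± 0.17 (95% interval -0.66 to 0.02). Dnajc4 and Dnajc21, which takes part in ribosome maturation, were both lower by -0.58, and Hspa1l by -0.47, after centring but not as deposited.

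The inducible Hsp70 genes were higher again at 43 days. Hspa1b had levels of -2.43, -0.75 and 1.88 in HET hearts and of 0.15, 0.89 and 2.05 in dKO hearts. The HET group held 1 heart at 1.88, above all but 2 of the dKO hearts. The difference was 1.57 ± 0.33 (adjusted p = 4.73e-05), a 2.98-fold higher signal, and it was 1.85 (adjusted p = 9.67e-07) in the larger array set. Hspa1a ran from -0.64 through 0.22 to 1.72 in HET hearts and from -0.40 through 0.95 to 2.43 in dKO hearts, a difference of 0.77 ± 0.30 (adjusted p = 0.0265). The groups overlapped for both genes.

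Of the other members tied to the heat shock response, Hsp90aa1, the inducible cytosolic Hsp90, was higher by 0.56 ± 0.21 (adjusted p = 0.0193), with levels of 2.37, 3.21 and 3.82 in HET hearts and of 3.20, 3.69 and 4.26 in dKO hearts. The mean over its probe sets differed by -0.15, and it was not called with the Gapdh 3' to 5' signal ratio, a measure of RNA integrity, as a covariate. Dnajb1, the Hsp40 that works with inducible Hsp70, lay at 0.22 ± 0.21 (95% interval -0.18 to 0.63), with levels of -0.09, 0.51 and 1.79 in HET hearts and of 0.44, 0.79 and 1.43 in dKO hearts. Hspa8 lay at 0.12 ± 0.16 (95% interval -0.19 to 0.43), with medians of 4.71 and 4.69, and Dnaja1, a cytosolic partner of Hspa8, at 0.06 ± 0.12. As deposited these 3 genes were called higher, at 0.57, 0.46 and 0.41, so the lack of a call depends on the scaling. Of 8 tested members on the list of cytosolic heat-inducible genes, 3 were higher and 1 lower, all in all 4 scalings. Of all tested genes 19.5% were higher and 11.6% lower in all 4 scalings. Windows with GAANNTTC thus belonged to members that were higher (Hspa1a, Hspa1b, Cct2, Dnajb6), lower (Hspd1, Hspe1, Hspb8) and not called after centring (Dnaja1, Hsph1).

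In the ER, 2 of 7 tested members were called at 43 days, both higher and both in all 4 scalings. Of all tested genes 19.6% were higher and 28.0% lower, or 19.5% and 11.6% in all 4 scalings. Dnajb11, an ER J protein and partner of Hspa5, had levels of -1.32, 0.13 and 0.68 in HET hearts and of 0.32, 0.56 and 0.82 in dKO hearts, a difference of 0.64 ± 0.16 (adjusted p = 3.89e-04). Of the dKO hearts, 4 were above every HET heart. Dnajc3 was higher by 0.47 ± 0.17 (adjusted p = 0.0188), and its second probe set by 1.004 ± 0.21. The mean log2 ratio of the Gapdh 3' to 5' signals was -0.213 in HET and 0.052 in dKO hearts of this age, and with it as a covariate Dnajc3 was at 0.40 (adjusted p = 0.0648). Dnajb9, another ER J protein, was not called, at -0.42 ± 0.19 (adjusted p = 0.0538), although 6 of 12 dKO hearts were below every HET heart and its second probe set lay at -0.60 ± 0.17 (adjusted p = 0.00252). Hspa5 at -0.30 ± 0.16 (95% interval -0.61 to 0.004) and Hsp90b1 at -0.05 ± 0.13 (95% interval -0.31 to 0.20) were not called after centring, while Hsp90b1 was called higher as deposited, at 0.30. Hsp90b1 had medians of 4.05 in HET hearts and 3.97 in dKO hearts. The 3 members with the ER stress element thus did not share a call, with only Dnajc3 higher in all 4 scalings.

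Of the 8 TRiC subunits, Cct2 was the only one called in all 4 scalings at 43 days. It was higher by 0.86 ± 0.22 (adjusted p = 7.71e-04), with levels of -1.06, 0.55 and 1.70 in HET hearts and of 1.06, 1.22 and 1.58 in dKO hearts, the dKO values falling inside the HET range. Cct7 was lower by -0.43 ± 0.12 (adjusted p = 0.0022) after centring, but not as deposited. The other 6 subunits were not called after centring, but Cct4, Cct5, Cct6a and Cct8 were called higher as deposited, at 0.31, 0.31, 0.41 and 0.64. Cct3 lay at -0.01 ± 0.15 (95% interval -0.30 to 0.29) and Cct5 at -0.04 ± 0.14 (95% interval -0.32 to 0.24), although a dimmer probe set of Cct5 differed by -0.71 ± 0.25. Dnajb6, a J protein that prevents aggregation, was higher by 0.29 ± 0.12 (adjusted p = 0.0329), while its second probe set lay at -0.13 ± 0.13. Without the 3 arrays that stood apart it was 0.23 with an adjusted p of 0.0614, and with the Gapdh ratio as a covariate 0.18 with an adjusted p of 0.213.

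**Figure D2:**
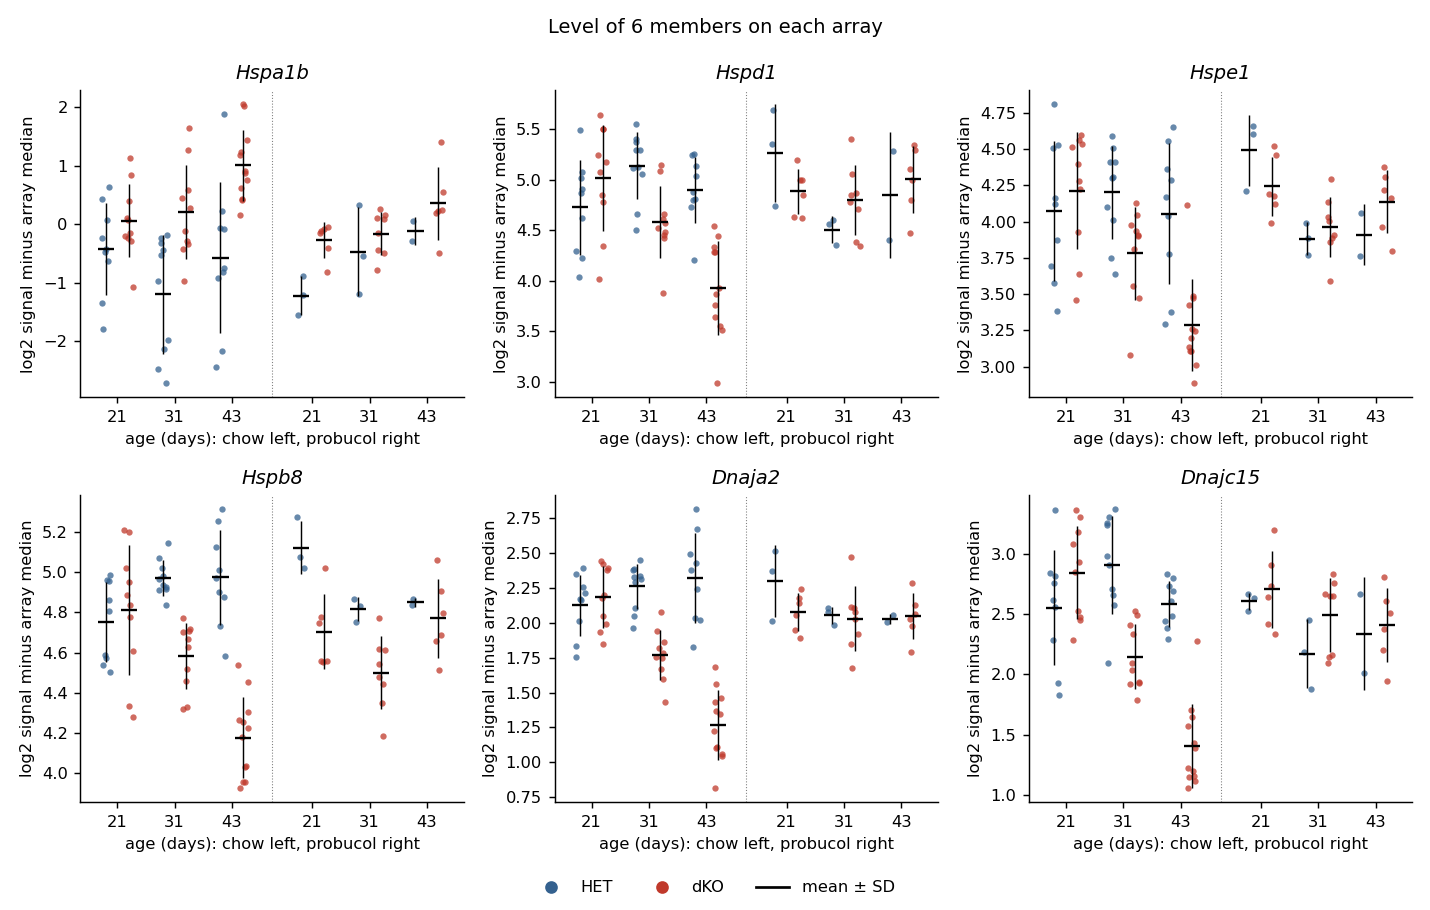
Level of 6 members on each array, as log2 signal minus the array median (vertical axis), by age in days (horizontal axis, chow left and probucol right of the dotted line), with HET hearts in blue and dKO hearts in red. Bars are group means ± SD. On chow at 43 days the dKO hearts lie at medians of 3.89 for Hspd1, 4.20 for Hspb8 and 1.28 for Dnaja2, against 4.87, 4.97 and 2.38 in HET hearts.

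The change of the genotype difference with age was tested directly. From 21 to 31 days it became lower for 16 members and higher for 0, where 21.0% of all tested genes became lower and 4.58% higher, and for 0 and 0 members in all 4 scalings, where 0.476% and 2.86% of all genes did. At an unadjusted p under 0.05 it was lower for 22 and higher for 0, where 32.0% and 7.19% of all genes passed. Within the larger array set none of the 16 was called, and the smallest adjusted p among them was 0.443, for Dnajc7 at -0.71. From 21 to 43 days it became lower for 17 and higher for 1, where 23.5% and 9.98% of all genes did. In all 4 scalings 5 were lower, Dnaja2, Dnaja3, Dnajc15, Hspa4 and Hspd1, and Cct2 was higher, where 6.14% and 9.50% of all genes were. Without replicate 2 of the dKO chow hearts at 21 days the change of Cct2 was 0.79, with an adjusted p of 0.0528. Dnajc15 changed by -1.46 ± 0.22 (adjusted p = 5.50e-08), Hspd1 by -1.26 ± 0.25 (adjusted p = 2.70e-05) and Dnaja2 by -1.11 ± 0.14 (adjusted p = 1.92e-09). Within the larger array set the change to 43 days was called for Dnaja2, Dnaja3, Dnajc15, Hspd1 and Hspb8, all lower, and for Dnajb11 at 0.94 (adjusted p = 0.0094) and Hspa1b at 1.51 (adjusted p = 0.0224), both higher. Hspa4 at -0.44 (adjusted p = 0.136) and Cct2 at 0.51 (adjusted p = 0.336) were not called there. The change of Cct2 was also not called with the array set as a block or with either 3' to 5' ratio as a covariate, and that of Hspa4 was 0.017 with the mean of its probe sets. With the mean of its own probe sets Hspb8 changed by -0.26 to 43 days (adjusted p = 0.436). Hspa1b changed by 0.93 ± 0.49 (adjusted p = 0.142) and 1.10 ± 0.48 (adjusted p = 0.0698) over these intervals, so no growth with age was called over all arrays after centring on the array median. The later change of Hspa1b was called with the tested-gene median (1.23, adjusted p = 0.0408) and as deposited (1.66, adjusted p = 0.00329). These comparisons share the hearts of the first age. In HET chow hearts alone, 1 of 48 members differed between 43 and 21 days, Dnajc2 at 0.48 ± 0.14 (adjusted p = 0.0359), where 0.952% of all genes were higher and 1.64% lower, or 0.935% and 0.494% in all 4 scalings, in which Dnajc2 held. With the mean of its probe sets Dnajc2 lay at 0.23 (adjusted p = 0.25), so its call rests on the probe set used.

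The genes that work with these chaperones were described from a list of 45 outside the members, of which 29 were tested. At 43 days on chow 16 were lower and 2 higher in dKO hearts, 8 and 2 in all 4 scalings, with a median of -0.41 beside -0.08 over all genes, of which 28.0% were lower and 19.6% higher, or 11.6% and 19.5% in all 4 scalings. Fkbp4 and Fkbp5, the immunophilins that exchange places on the Hsp90 complex of steroid receptors, went in opposite directions, at -1.91 ± 0.13 (adjusted p = 1.13e-22) and 0.95 ± 0.37 (adjusted p = 0.0282). Of the partners of the mitochondrial members, Grpel1, the exchange factor of Hspa9, lay at -1.22 ± 0.15, and Clpp and Clpx, the subunits of a mitochondrial protease, at -1.05 ± 0.14 and -1.40 ± 0.41. Pfdn2 and Pfdn6, subunits of the prefoldin that hands clients to TRiC, lay at -1.54 ± 0.17 and -0.79 ± 0.11, and Unc45a, a chaperone of myosin, at 1.45 ± 0.36. Cdc37 and Ppid, co-chaperones of Hsp90, lay at -0.72 ± 0.11 and -0.71 ± 0.13. Bag3, the partner of Hspb8, was lower by -0.51 ± 0.11 (adjusted p = 6.29e-05) after centring only. At 31 days 17 of the 29 were called, all lower, and 1 of them in all 4 scalings, where 23.0% and 3.84% of all genes were lower.

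Probucol was compared with chow within dKO hearts. At 21 days no member was called, and at an unadjusted p under 0.05 the limma fit had 0 higher and 2 lower. Over all genes 2.47% were higher and 11% lower at that unadjusted p, and 0.0705% and 1.22% were called. At 31 days 4 members were higher on probucol and 1 lower, where 7.95% and 11.8% of all genes were. The lower member, Dnajc10, an ER J protein that reduces disulfides, held in all 4 scalings at -0.36 ± 0.11 (adjusted p = 0.0114), as 11.1% of all genes did, with 1.97% higher. Its levels were 1.94, 2.22 and 2.58 on chow and 1.49, 1.92 and 2.19 on probucol. The higher members were Dnajc4 at 0.57 ± 0.13, Hspa8 at 0.48 ± 0.17, Dnaja3 at 0.40 ± 0.14 and Dnajb4 at 0.39 ± 0.15, none of them in all 4 scalings. As deposited, 0 were higher and 5 lower, where 2.12% and 27.1% of all genes were.

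At 43 days 16 members were higher and 3 lower in dKO hearts on probucol than on chow, where 21.4% and 17.4% of all genes were. In all 4 scalings 5 were higher, Hspd1, Hspe1, Dnajc15, Dnaja3 and Dnaja2, and the same 3 lower, where 8.20% and 17.0% of all genes were. The members' median difference was 0.25, beside 0.07 over all genes. As deposited, 5 were higher and 11 lower, where 8.2% and 37.7% of all genes were. The mean log2 ratio of the actin 3' to 5' probe signals, a measure of RNA integrity, was 0.172 on chow and -0.116 on probucol, and with it as a covariate the counts were 16 higher and 3 lower. In these hearts the 9 cardiomyocyte markers were all higher on probucol and the 9 macrophage markers all lower, each in all 4 scalings, and the part of this in the results was not tested. The erythroid sum had a median of 79.7 in dKO hearts on probucol. The macrophage sum ran from 37.7 through 39.4 to 44.8 in dKO hearts on probucol, and the cardiomyocyte sum from 998 through 1214 to 1403.

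The mitochondrial members were higher on probucol. Hspd1 had levels of 4.47, 5.05 and 5.35 in the 6 dKO hearts on probucol, and 5 of these were above all 12 dKO hearts on chow. The difference was 1.07 ± 0.19 (adjusted p = 3.15e-06), a 2.10-fold higher signal, while the second, dimmer probe set of Hspd1 lay at 0.18 ± 0.24 (adjusted p = 0.615). Hspe1 ran from 3.80 through 4.19 to 4.37, a difference of 0.85 ± 0.17 (adjusted p = 2.18e-05). Dnajc15 ran from 1.95 through 2.44 to 2.81 and differed by 0.999 ± 0.17 (adjusted p = 7.46e-07), and Dnaja3 by 0.85 ± 0.15 (adjusted p = 2.06e-06). Hspa9 at 0.66 ± 0.15 (adjusted p = 2.27e-04) and Dnajc11 at 0.97 ± 0.32 (adjusted p = 0.0102) were called after centring and not as deposited. This brings the mitochondrial list to 6 of 6 higher, 4 of them in all 4 scalings. Of all tested genes 21.4% were higher, and 8.20% in all 4 scalings.

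Among the members outside the mitochondrial list, Dnaja2 had levels of 1.79, 2.04 and 2.29 on probucol, all above every dKO heart on chow, and differed by 0.78 ± 0.11 (adjusted p = 1.74e-08). Dnajb4, a J protein of the Hsp40 type, also lay above every chow heart, at 0.61 ± 0.16 (adjusted p = 9.82e-04). Dnajb11, an ER J protein, lay below every chow heart, with levels of -0.07, 0.14 and 0.31 and a difference of -0.46 ± 0.18 (adjusted p = 0.0313). Groups did not overlap for these 3 members, nor for 14.8% of all tested genes. Hspb8 ran from 4.51 through 4.74 to 5.06 and was higher by 0.60 ± 0.10 (adjusted p = 1.58e-06), though not as deposited. Dnajc5, the cysteine string protein of secretory vesicles, was lower by -0.48 ± 0.14 (adjusted p = 0.00319), with levels of 0.40, 0.74 and 1.46 on probucol and of 1.14, 1.24 and 1.74 on chow. Dnajc10, also an ER member, was lower by -0.37 ± 0.11 (adjusted p = 0.00604). Cct7, Dnajb2, Dnajc4, Dnajc21, Hspa4, Hspa5 and Hspb2 were also higher, by 0.37 to 0.64, none of them in all 4 scalings. With the mean of their probe sets Hspa4 and Hspb2 were not called, at 0.21 and 0.33 (adjusted p = 0.204 and 0.0709).

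The inducible Hsp70 genes were not called for probucol after centring. At 43 days Hspa1b had levels of -0.50, 0.24 and 1.41 on probucol and differed from chow by -0.65 ± 0.38 (95% interval -1.39 to 0.09, adjusted p = 0.172). As deposited, Hspa1b was called lower, at -1.04 (adjusted p = 0.0161). Hspa1a lay at -0.16 ± 0.34 (95% interval -0.82 to 0.50). At 31 days the differences were -0.37 ± 0.36 for Hspa1b and -0.04 ± 0.32 for Hspa1a. These intervals are wide against the genotype differences, so they do not show that the genes were alike on the diets. Of the partner genes, 14 were higher and 3 lower on probucol at 43 days, where 21.4% and 17.4% of all genes were, among them Fkbp4 at 1.94 ± 0.15 and Fkbp5 at -1.79 ± 0.42, both in all 4 scalings.

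**Figure D3:**
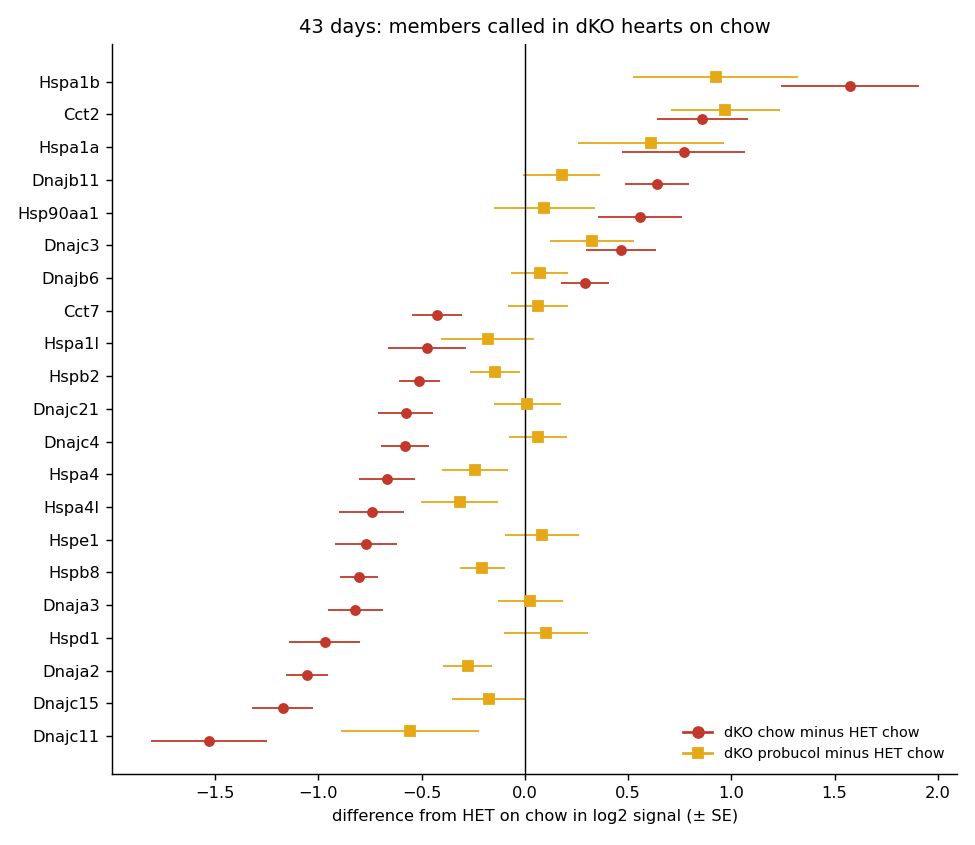
Difference in log2 signal from HET hearts on chow at 43 days (horizontal axis, ± SE), for dKO hearts on chow (red circles) and on probucol (yellow squares), of the 21 members called in dKO hearts on chow. Both comparisons use the same HET hearts. Hspd1 lies at -0.97 on chow and 0.10 on probucol, and Hspa1b at 1.57 and 0.92.

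Beside the HET chow hearts of the same age, dKO hearts on probucol had no called member at 43 days, where 0.300% of all genes were higher and 0.458% lower, and at an unadjusted p under 0.05 the fit had 7 higher and 2 lower, where 4.69% and 7.85% of all genes passed. For Hspd1 the difference was 0.10 on probucol, beside -0.97 on chow, and for Hspb8 -0.21 beside -0.80. For Cct2 it was 0.97 (adjusted p = 0.0541) beside 0.86, and for Hspa1b 0.92 (adjusted p = 0.297) beside 1.57. All these comparisons use the same HET hearts. At 31 days 1 member was higher and 5 lower, where 1.39% and 12.7% of all genes were. Hspa1b was higher by 1.04 ± 0.36 (adjusted p = 0.0393) and Hspb8 lower by -0.47 ± 0.10 (adjusted p = 6.71e-04), and of the others Hspa4, at -0.60 ± 0.14, was lower in all 4 scalings, as 2.80% of all genes were, with 0.652% higher. With the mean of its probe sets Hspa4 lay at 0.06 (adjusted p = 0.768), so its direction depends on the probe set. Hspb8 lay at -0.18 (adjusted p = 0.547) with the mean of its own probe sets, so its call rests on the probe set used. Within the larger array set 1 member was called, Hspb8 at -0.50 (adjusted p = 0.0166), and Hspa1b was at 0.34 (adjusted p = 0.732). At 21 days no member was called, where 0.0705% of all genes were higher and 0.0353% lower, with 1 higher and 0 lower at an unadjusted p under 0.05, which 2.87% and 2.73% of all genes passed.

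The 8 HET hearts on probucol, 2 or 3 at each age, were compared with the ages pooled. Against HET chow hearts, 2 members were lower and 0 higher, where 2.31% and 0.406% of all genes were, with 8 lower and 1 higher at an unadjusted p under 0.05, which 11.7% and 4.36% of all genes passed. Dnajc11 was lower by -0.95 ± 0.26 (adjusted p = 0.027) in all 4 scalings, in which 1.59% of all genes were lower and 0.247% higher. It had values of -0.43, -0.15 and 0.48 in the hearts at 21 days, -0.81, -0.81 and -1.24 at 31 days, and -0.39 and -0.07 at 43 days. Its values at 31 days were below those at the other ages. Within the larger array set Dnajc11 lay at -0.94 and was not called (adjusted p = 0.059). Dnajb9, an ER J protein, was lower by -0.60 ± 0.17 (adjusted p = 0.0383). With the mean of its probe sets Dnajb9 lay at -0.31 (adjusted p = 0.221), so its call rests on the probe set used. Leaving out single HET probucol hearts gave between 0 and 4 called members, so these calls rest on few hearts. Between the genotypes on probucol no member was called, where 0.0353% of all genes were called in each direction, with 3 higher and 2 lower at an unadjusted p under 0.05, which 2.65% and 2.98% of all genes passed.

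The difference of the probucol effect between the genotypes was tested as a difference of differences over the pooled ages. It was higher in dKO than in HET hearts for 7 members and lower for 1, where 11% and 9.01% of all genes were. In all 4 scalings Dnajc11 at 1.46 ± 0.32 (adjusted p = 3.21e-04) and Dnajc15 at 0.71 ± 0.17 (adjusted p = 0.001) were higher and Dnajc5 at -0.48 ± 0.14 (adjusted p = 0.00805) lower, where 5.40% and 8.73% of all genes were. Dnaja2 lay at 0.42 ± 0.11 (adjusted p = 0.00434) after centring. For Dnajc11 the probucol difference in HET hearts, -0.95, forms part of this value.

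**Figure D4:**
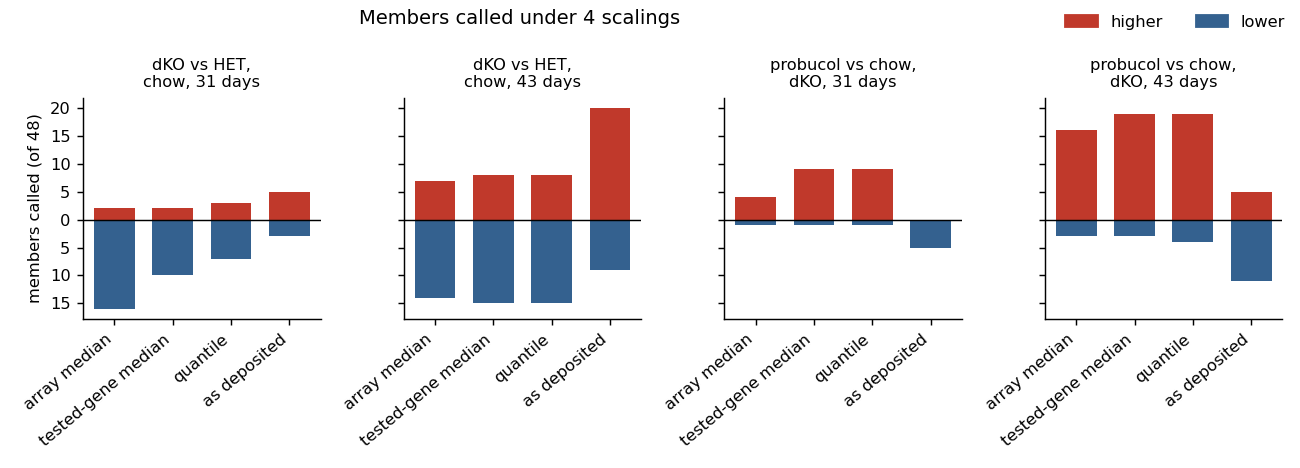
Number of members called higher (red, upwards) and lower (blue, downwards), of 48 tested, under each of the 4 scalings (horizontal axis), for dKO against HET on chow and for probucol against chow in dKO hearts, at 31 and 43 days. The 3 normalized scalings have 14 to 15 members lower at 43 days on chow, where 26.8% to 28.0% of all genes were lower. Values as deposited have 9, where 11.6% of all genes were lower.

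Across single hearts, 5 pairs of members were compared through their deviations from the group mean on 88 arrays, with 100000 permutations within groups and p-values adjusted over the pairs. Hspa5 and Hsp90b1, the ER pair with the same element, varied together, with r = 0.774 and rho = 0.766 (permutation adjusted p = 5.00e-05 for both, the smallest that these permutations can give). Without the 2 hearts farthest from the median r was 0.758, and it was 0.683 within the larger array set, 0.960 within the smaller one (17 arrays in groups with at least 2) and 0.630 after quantile normalization. Hspd1 and Hspe1 had r = 0.470 and rho = 0.396 (permutation adjusted p = 8.75e-05 and 5.38e-04), 0.430 without the 2 farthest hearts, and 0.426 and 0.618 within the array sets. After quantile normalization that r was 0.095 (permutation adjusted p = 0.516), so the relation between the mitochondrial partners depends on the scaling. Hsph1 and Hspa8 had r = 0.5005 and rho = 0.480 (permutation adjusted p = 6.67e-05 and 5.00e-05), 0.482 without the 2 farthest hearts, and 0.335 and 0.727 within the sets. Hsph1 and Dnajb1 had r = 0.499 and rho = 0.391 (permutation adjusted p = 6.67e-05 and 5.38e-04), 0.367 without the 2 farthest hearts, but 0.220 (adjusted p = 0.111) and 0.857 (adjusted p = 0.0765) within the larger and smaller sets by the same permutation. In the smaller set it was 0.493 without the 2 farthest hearts, and neither set alone passed the threshold. Cct2 and Cct3, subunits of the same chamber, had r = 0.038 and rho = 0.040 (permutation adjusted p = 0.748 and 0.726), and 0.060 without the 2 farthest hearts.

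**Figure D5:**
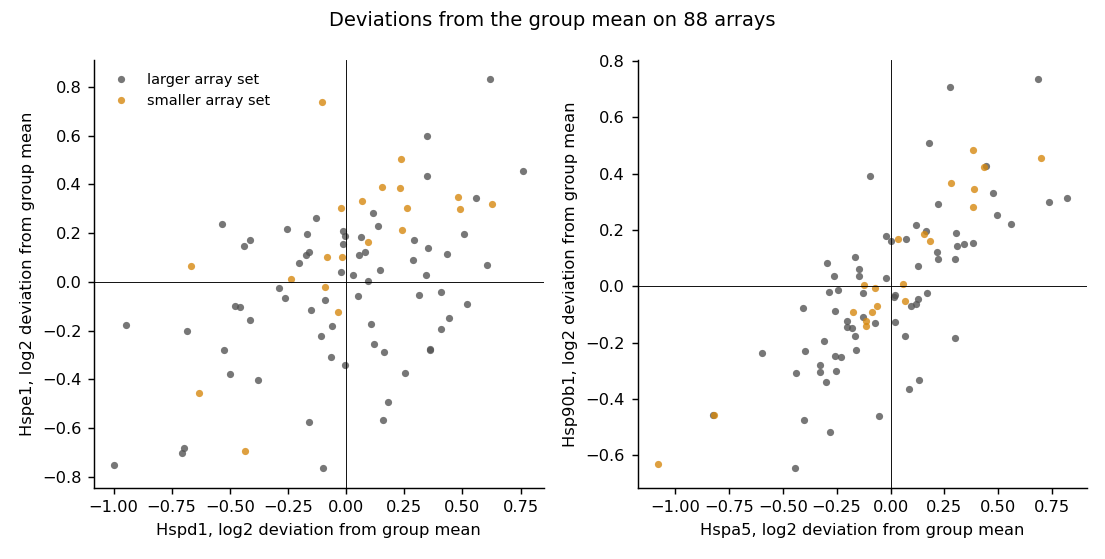
Deviation of each of 88 arrays from its group mean in log2 signal, for Hspe1 against Hspd1 (left, r = 0.470) and Hsp90b1 against Hspa5 (right, r = 0.774). Grey points are the larger and orange points the smaller array set, and both sets follow the trend on the right.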

How the data were processed

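Signals of 88 Affymetrix arrays, 1 mouse heart each, were used as deposited: per the submitters' processing notes the authors made these linear intensity values with MAS5, and how they were scaled is not stated in those sources. Values under the 10th percentile of all signals (4.22) were raised to it, log2 was taken, and each array was centred on the median of its 12488 probe sets. Gene names came from the platform annotation, where 10833 probe sets carried a single symbol. The probe set with the highest mean represented a gene, and genes in the upper 60% by mean signal (above 30.2) were tested.

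Groups followed the sample titles. A model with 12 group means over all 88 arrays was fitted with limma 3.58.1 in R 4.3.3 (lmFit, eBayes with an intensity trend), and 15 contrasts were adjusted by Benjamini-Hochberg over 5671 genes. The model was tested on simulated data. Permutations used numpy 2.4.6 and scipy 1.17.1 in Python 3.11.15. Members and lists were chosen with earlier results of these data known. Full group values are given for well-known members and for the 3 higher and 3 lower members with the smallest adjusted p of each main comparison. Other members that passed are named or counted, not all with their difference. For alternatives chosen after the data were seen the closing section says so. Replicate numbers recur between groups, but same-numbered arrays had a mean residual correlation of 0.0081, so the numbers were not used as pairs. Intervals are the difference with its SE times the normal quantile for 95%. The alternatives varied the scaling, floor, filter, probe set rule, array weights, RNA integrity covariates, array set and single hearts.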

Additional observations from a re-analysis of the deposited data

Results flagged for a closer look

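In 10 of 192 groups of 4 to 10 hearts looked at, 1 heart lay far from the others by Dixon's criterion, and chance alone flags about 1 group in 20. In HET chow hearts, Hspa5 was at 3.29 in replicate 2 at 21 days (nearest other heart 4.12) and at 3.65 in replicate 7 at 31 days (nearest 4.35), Dnaja1 was at 2.14 in that same replicate 7 (nearest 2.94), and Hspd1 was at 4.20 in replicate 9 at 43 days (nearest 4.73). These 3 arrays are the ones that stood apart on the first component. Dnajc4 was at 1.84 in replicate 2 of the HET chow hearts at 43 days (nearest 1.47). Cct2 was at 1.73 in replicate 1 of the dKO chow hearts at 21 days (nearest 1.11). Among dKO hearts on probucol at 31 days, replicate 7 was high for Hspa5 at 5.10 (nearest 4.50) and for Hsph1 at 1.90 (nearest 1.18), replicate 6 was low for Hspa1a at -0.87 (nearest 0.09) and replicate 1 was low for Cct3 at 1.12 (nearest 1.86).

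Over all tested genes the limma interaction test had 21.0% lower and 4.58% higher from 21 to 31 days, or 0.476% and 2.86% in all 4 scalings. From 21 to 43 days the shares were 23.5% and 9.98%, or 6.14% and 9.50% in all 4 scalings. For the members below, the genotype difference on chow differed between ages by the same test after array-median centring. From 21 to 31 days it changed by -0.46 for Dnaja1, -0.55 for Dnaja2, -0.86 for Dnaja3, -1.05 for Dnajc15, -0.43 for Dnajc4, -0.63 for Hsp90b1, -0.85 for Hspa4, -0.92 for Hspa5, -0.58 for Hspa9, -0.45 for Hspb8, -0.84 for Hspd1 and -0.56 for Hspe1. From 21 to 43 days it changed by 0.84 for Cct2, -1.11 for Dnaja2, -1.12 for Dnaja3, -1.46 for Dnajc15, -0.53 for Dnajc4, -0.92 for Hspa4, -0.61 for Hspa5, -0.65 for Hspa9, -0.86 for Hspb8, -1.26 for Hspd1 and -0.91 for Hspe1. The probucol effect differed between dKO and HET hearts by 0.42 for Dnaja2, 0.71 for Dnajc15 and -0.48 for Dnajc5.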

How the results depend on the processing

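The numbers of called members below are set beside 18 for the genotype difference at 31 days, 21 at 43 days, 16 and 18 for its changes from 21 to 31 and 43 days, 5 and 19 for probucol in dKO hearts at 31 and 43 days, 6 and 0 for dKO hearts on probucol against HET chow hearts at those ages, 2 for probucol in HET hearts, 8 for the difference of the probucol effect and 1 for age in HET hearts. In the same order, 31.6%, 47.6%, 25.6%, 33.5%, 19.8%, 38.7%, 14.1%, 0.758%, 2.72%, 20% and 2.59% of all tested genes were called. The number of genes called over the whole array also moves with the setting. Where no share of all genes is given below, a changed count is therefore not read as a result about the members. As deposited the numbers of members were 8 for genotype at 31 days, 2 for its change to 31 days, 3 for dKO on probucol against HET chow at 31 days, 4 for the difference of effect and 10 for age in HET hearts. The shares of all genes called were 24.3%, 14.9%, 6.26%, 19.3% and 19.7% in these comparisons. After quantile normalization the first 3 of these were 10, 4 and 3, 10 for probucol at 31 days, 2 for dKO on probucol against HET chow at 43 days and 2 for age. With no floor and log2(value + 16) there were 9 for the change to 31 days, 1 for dKO on probucol against HET chow at 43 days and 2 for age. With no filter, 1 was called for genotype at 21 days and 1 for probucol in HET hearts; with the upper 40% by signal, 1 for dKO on probucol against HET chow at 43 days; with the mean of probe sets, 0 for age; with only the groups compared, 1 for probucol in HET hearts and 0 for age. Array weights gave 3 for genotype and 1 for probucol at 21 days, 8 for probucol at 31 days, 2 for dKO on probucol against HET chow at 43 days and 4 for probucol in HET hearts. With the Gapdh 3' to 5' ratio there were 2 for probucol at 31 days and 11 for dKO on probucol against HET chow at 31 days, and with the actin ratio 2 for probucol at 31 days and 1 for dKO on probucol against HET chow at 43 days.

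With the array set as a block there were 11 for genotype at 31 days, 3 for its change, 2 for dKO on probucol against HET chow at 31 days and 1 for probucol in HET hearts. Within the larger set these were 5, 0, 1 and 1, and the change to 43 days had 7. At 1.5-fold or more there were 6 and 13 for genotype at 31 and 43 days, 8 for the change to 31 days, 0 and 11 for probucol, 2 for dKO on probucol against HET chow at 31 days, 4 for the difference of effect and 0 for age. Leaving out single hearts gave 0 to 4 for probucol in HET hearts and 5 to 9 for the difference of effect. Other settings were chosen after seeing the data: the tested-gene median gave 5 for the change to 31 days, 10 for probucol at 31 days, 1 for dKO on probucol against HET chow at 43 days and 1 for probucol in HET hearts; with the array set as a block too it gave 11 for genotype at 31 days, 2 for its change, 10 for probucol at 31 days and 2 for dKO on probucol against HET chow at 31 days; and without the arrays that stood apart dKO on probucol against HET chow had 11 at 31 days and 1 at 43 days. The replicate block gave 3 for probucol at 31 days and 20 for genotype at 43 days, and since the shared numbers do not pair hearts, a call lost under it is not read as a weaker effect. For pairs of members, r for Hspd1 and Hspe1 was 0.0947 after quantile normalization, r for Hsph1 and Dnajb1 was 0.220 and 0.857 within the array sets, and r for Cct2 and Cct3 was -0.0397 after quantile normalization.

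Directions turned for single genes. As deposited, Cct7 was at 0.0146 for genotype at 31 days, Cct7, Dnaja1, Dnajc2, Dnajc4 and Hspb8 were at 0.030, 0.077, 0.011, 0.10 and 0.089 for its change to 31 days, Dnajc4 and Hspb2 at 0.037 and 0.12 for the change to 43 days, and Hspb2 at -0.022 for probucol at 43 days. With the mean of probe sets, Hsp90aa1 and Hspa4 were at -0.15 and 0.14 for genotype at 43 days, Hspb8 at 0.34 for the change to 31 days, and Hspa4 at 0.017 for the change to 43 days and 0.064 for dKO on probucol against HET chow at 31 days. Without replicate 2 of the dKO chow hearts at 21 days, Dnaja1, Dnajc4 and Hspe1 at 31 days and Cct2 at 43 days (0.79, adjusted p = 0.0528) were no longer called for the change with age. The cause of these shifts was not tested. Dim signal limits the 7 untested members.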
